A study of Homo sapiens with 6 samples.

Results

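LIN28B and 7 further genes of the oncofetal RNA-binding programme were followed in a cultured human neuroblastoma line, SK-N-BE(2)-C. The 8 genes, LIN28B, LIN28A, IGF2BP1, IGF2BP2, IGF2BP3, HMGA2, DICER1 and DIS3L2, were taken by symbol from the 36601 genes of the count files, and each was read in all 6 libraries. Treatments were the solvent DMSO as control, TSA or E6R, with 2 libraries each. TSA commonly stands for trichostatin A, which blocks histone deacetylase (HDAC) enzymes. The series asks how a non-enzymatic inhibitor of HDAC complexes acts on the transcriptome. The labels give no dose, no treatment time and no structure for E6R, so TSA and E6R cannot be compared at matched exposure. Nothing in the labels says that the 2 libraries of a treatment came from separate cultures, so the p-values measure only the spread between these libraries.

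LIN28A and LIN28B are RNA-binding proteins of embryonic cells that block the maturation of let-7, a family of microRNAs that represses growth genes and accumulates as tissues differentiate. LIN28A binds the precursor hairpin and recruits the uridylyl transferases TUT4 and TUT7, after which the exonuclease DIS3L2 degrades the tailed precursor. DICER1 cuts precursors that escape this into mature microRNAs. LIN28B is known as an oncogene in neuroblastoma. The IGF2BP proteins bind and stabilise mRNAs in fetal tissues and tumours, and HMGA2 is a fetal chromatin protein. LIN28B, IGF2BP1 and HMGA2 are themselves classical let-7 targets.

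The let-7 sequences in RefSeq (GRCh38.p14) show what LIN28 proteins act on. All 12 let-7 hairpins found there gave 9 distinct mature 5p sequences with 1 common seed, bases 2 to 8, which is in capitals below. The 4 shown include miR-98, the member that carries another name.
hsa-let-7a-5p: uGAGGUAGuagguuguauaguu
hsa-let-7b-5p: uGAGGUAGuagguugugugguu
hsa-let-7i-5p: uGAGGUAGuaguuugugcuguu
hsa-miR-98-5p: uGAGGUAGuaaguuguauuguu
LIN28 proteins recognise GGAG in the loop of the precursor. Of the 11 hairpins with both arms listed, GGAG lay between the arms in 8 and not in let-7a-3, let-7b and miR-98. The remaining hairpin, let-7f-2, has no 3p arm listed and held GGAG after its 5p sequence. The 2 hairpins below differ in it, with GGAG in capitals.
let-7a-1 at chr9:94175957-94176036, plus strand: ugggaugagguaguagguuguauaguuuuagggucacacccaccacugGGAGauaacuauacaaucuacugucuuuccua
let-7b at chr22:46113686-46113768, plus strand: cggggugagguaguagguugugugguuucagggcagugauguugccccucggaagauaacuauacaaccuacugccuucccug
The mature microRNAs and their precursors were not measured by these libraries.

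The complement of the let-7 seed, CTACCTC, was searched on the transcript strand in the 3′ UTR of 1 principal transcript per gene (GENCODE 29, GRCh38). LIN28B, IGF2BP1 and HMGA2 each held 4 matches. Of the 13713 tested genes with a 3′ UTR, 11 (0.0802%) held 4 or more, and LIN28B and IGF2BP1 were among these. LIN28A, IGF2BP2 and IGF2BP3 each held 1 match, and 9.92% of those genes held 1 or more. DICER1 and DIS3L2 held none in the 3′ UTR searched, which says only that these letters are not there. The matches of the 3 best measured of these genes are shown as 28-base windows with the match in capitals, 8 bases where an A follows.
LIN28B site 1 at chr6:105078812-105078839, plus strand: acccggttgcaaagtCTACCTCAtgcaa
LIN28B site 2 at chr6:105081239-105081266, plus strand: tactgatgatagtaaCTACCTCtgagtt
LIN28B site 3 at chr6:105081421-105081448, plus strand: gtttacagcaaaaggCTACCTCAtagtt
LIN28B site 4 at chr6:105082860-105082887, plus strand: aaatgatggtgttgaCTACCTCttgaat
IGF2BP1 site 1 at chr17:49051061-49051088, plus strand: tgtgtgcgaagtaaaCTACCTCAaggta
IGF2BP1 site 2 at chr17:49053698-49053725, plus strand: cagcagtgctagtaaCTACCTCAcagag
IGF2BP1 site 3 at chr17:49054352-49054379, plus strand: gtataaatggattaaCTACCTCAatcct
IGF2BP1 site 4 at chr17:49054997-49055024, plus strand: tcacttttgttttatCTACCTCttagca
IGF2BP3 site 1 at chr7:23311790-23311817, minus strand: tgcatttttactcaaCTACCTCAggtat

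Promoter windows of 250 bases before to 50 bases after a start were listed by RefSeq (GRCh38.p14) for 5 of the 8 genes. CACGTG, a palindrome known as an E-box that helix-loop-helix proteins such as MYCN recognise, was in 7.26% of all 35116 windows and in 9.06% of the windows of tested genes. It occurred in the IGF2BP3 window, at 174 and 146 bases before the start, and at the downstream start of LIN28B, at 47 bases before it, but not at the upstream start of LIN28B. Windows with 2 or more matches made up 0.664% of the total. A match is a string of letters, and binding was not measured here.
IGF2BP3 promoter at chr7:23470442-23470741, minus strand: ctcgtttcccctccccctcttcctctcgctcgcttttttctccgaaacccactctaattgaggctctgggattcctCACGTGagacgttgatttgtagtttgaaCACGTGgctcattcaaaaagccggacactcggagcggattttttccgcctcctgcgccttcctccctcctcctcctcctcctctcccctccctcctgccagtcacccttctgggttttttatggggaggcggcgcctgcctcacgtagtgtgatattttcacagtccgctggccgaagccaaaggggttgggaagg
LIN28B promoter at chr6:104956857-104957156, plus strand: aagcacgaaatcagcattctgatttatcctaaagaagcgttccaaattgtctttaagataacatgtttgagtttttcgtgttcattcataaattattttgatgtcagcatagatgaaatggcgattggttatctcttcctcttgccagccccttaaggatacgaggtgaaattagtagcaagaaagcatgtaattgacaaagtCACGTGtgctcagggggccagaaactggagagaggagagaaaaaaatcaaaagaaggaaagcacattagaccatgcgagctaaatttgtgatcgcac

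Of the deposited barcodes, 17589 had at least 500 genes and at most 20% mitochondrial UMIs (unique molecular identifiers, each 1 captured RNA molecule) and were taken as cells. The libraries held 1861 to 3946 cells and 4206366 to 26180262 UMIs in cells, with medians of 1054 to 1880 UMIs per cell. Between 11 and 58 cell barcodes were shared by any 2 libraries, and 102 of the 17392 distinct barcodes occurred in more than 1. Mitochondrial UMIs were 1.51% and 1.55% of the total in the E6R libraries, against 5.83% to 9.71% in the others; the part of this in the results was not tested. All 8 adrenergic neuroblastoma markers were detected in every library, at 1180 to 2713 summed CPM. The 4 immune markers summed to 0.790 to 2.13 CPM, and the 3 pluripotency markers to 0.376 to 1.53. The 7 fibroblast markers summed to 42.6 to 338 CPM with none at 0, the 4 epithelial markers to 12.8 to 63.7 CPM with at most 1 at 0, and the 4 Schwann markers to 5.16 to 16.5 CPM with at most 3 at 0. All 3 sums were higher in replicate 1 than in replicate 2 of each treatment, and their part in the results was not tested.

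Per library, the UMIs of all its cells were added up and tested across the 6 libraries with edgeR's quasi-likelihood test, with Benjamini-Hochberg adjustment over all 16763 genes tested. Levels are CPM, UMI counts relative to the TMM-scaled library size. Of the 8 genes, 7 passed the low-count filter, all but HMGA2. For TSA against DMSO, 4 of the 7 fell and none rose, where 29.7% of all genes tested were called and 13.5% were called lower. For E6R against DMSO none was called, where edgeR called 0% of genes. Of the 7, LIN28A and IGF2BP3 had an unadjusted edgeR p under 0.05 there, as did 2913 of the 16763 genes tested. LIN28A passed the filter only through the DMSO libraries, where it was highest, so its p is not independent of the filter and is no support. DESeq2 called 361 genes in all, none of them among the 6 members for which it gave a value (LIN28A had none). With the replicate number as a block, edgeR called 19 genes and no member. For E6R against TSA, the same 4 genes were higher and none was lower, where 38.2% of genes were called and 18.7% were called higher. The TSA and the E6R contrasts share the DMSO libraries, and both TSA contrasts share the TSA libraries, so these counts are not independent of each other. The 8 genes were chosen with earlier results of these data known, so the counts beside the shares are no test of the set.

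LIN28B (chr6:104936616-105083332, plus strand, protein-coding) had 257 and 236 UMIs under DMSO, 75 and 70 under TSA, and 1052 and 1806 under E6R. Scaled to depth these were 54.6 and 45.1 CPM, 5.70 and 6.09 CPM, and 66.5 and 67.9 CPM. Both TSA libraries lay far below all others, and both E6R libraries lay above both DMSO libraries. Under TSA, LIN28B fell by 3.08 on the log2 scale (SE 0.23, 8.45-fold, edgeR adjusted p = 0.000521). Of the 16763 genes, 246 (1.47%) had a lower log2 fold change. For E6R against DMSO the log2 fold change was 0.43 (95% interval -0.04 to 0.90, edgeR adjusted p = 0.322), which did not pass. Between the compounds LIN28B was 11.4-fold higher under E6R (log2 3.51, SE 0.23, edgeR adjusted p = 0.000232). LIN28B-AS1, which overlaps LIN28B on the opposite strand, had 13 to 54 UMIs per library, and 7 of the 8 genes, all but LIN28A, overlap another annotated gene. The strand rule of the counting is not given in the sources used here, so reads of overlapping genes cannot be told apart.

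LIN28A (chr1:26410778-26429722, plus strand), the paralogue usually found in pluripotent cells, was near the limit of detection. It had 6 and 5 UMIs under DMSO, 4 and 4 under TSA, and 2 and 10 under E6R. The log2 fold changes were -1.74 for TSA (edgeR adjusted p = 0.143) and -2.03 for E6R (edgeR adjusted p = 0.253), and neither passed. Without TMM scaling LIN28A was at 1.43 and 1.04 CPM under DMSO and at most 0.382 CPM in the other libraries. It passed the low-count filter only through the DMSO libraries, so that selection favours a negative sign in both comparisons with DMSO. Between the compounds the log2 value was -0.28 (edgeR adjusted p = 0.803). With so few molecules, no order of the treatments can be read for LIN28A.

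**Figure D1:**
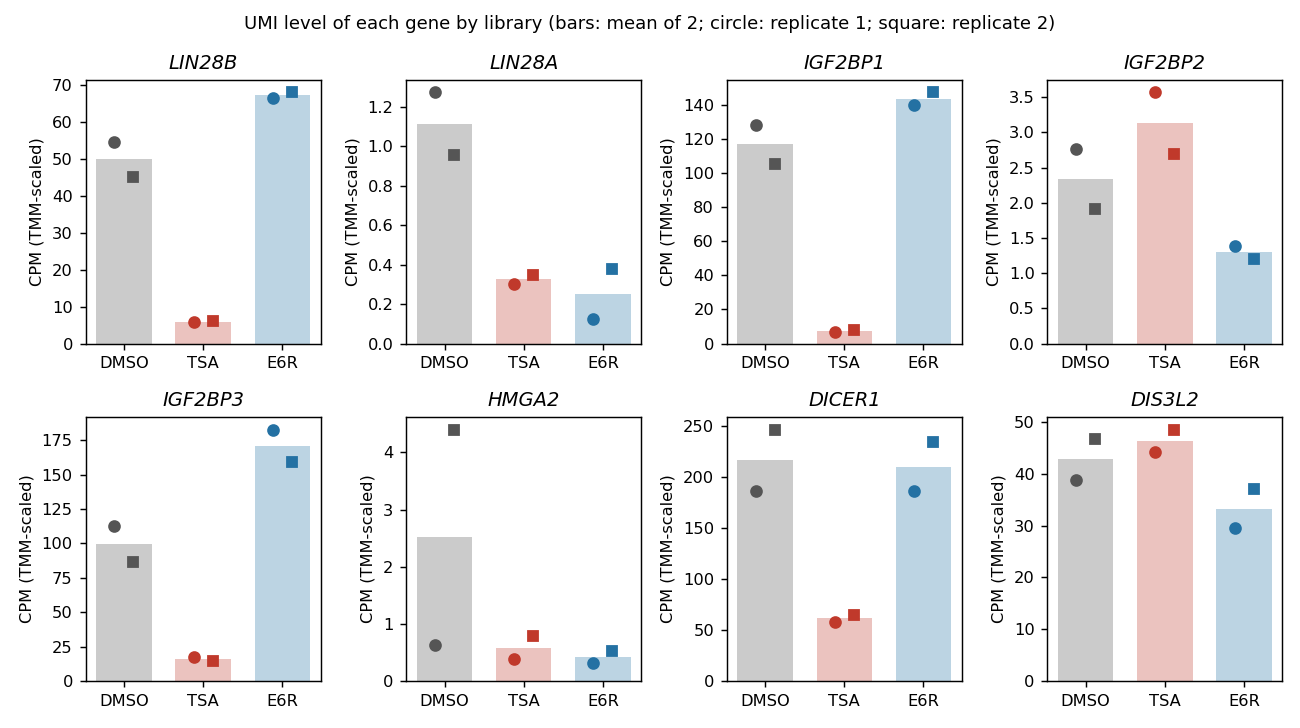
Level of each of the 8 genes in CPM (TMM-scaled, vertical axis) under DMSO, TSA and E6R; bars are means of 2 libraries, circles replicate 1 and squares replicate 2. LIN28B, IGF2BP1, IGF2BP3 and DICER1 are lowest in both TSA libraries, DIS3L2 is not, and the panels of LIN28A, IGF2BP2 and HMGA2 span under 5 CPM.

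DICER1 (chr14:95086228-95158010, minus strand), which makes the final cut to mature microRNA, had 878 and 1288 UMIs under DMSO, 766 and 747 under TSA, and 2943 and 6229 under E6R. These were 187 and 246 CPM, 58.2 and 65.0 CPM, and 186 and 234 CPM. The TSA libraries lay below all others, while the DMSO and E6R libraries overlapped. Under TSA, DICER1 fell by 1.81 on the log2 scale (SE 0.23, 3.51-fold, edgeR adjusted p = 0.00189). The log2 fold change for E6R against DMSO was -0.04 (95% interval -0.55 to 0.47, edgeR adjusted p = 0.939). DICER1 was 3.41-fold higher under E6R than under TSA (edgeR adjusted p = 0.00120). DICER1-AS1, on the opposite strand, had 17 to 83 UMIs per library.

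DIS3L2 (chr2:231961245-232344350, plus strand) is the exonuclease of the LIN28A route. It had 183 and 245 UMIs under DMSO, 583 and 558 under TSA, and 468 and 985 under E6R. The levels were 38.9 and 46.9 CPM, 44.3 and 48.6 CPM, and 29.6 and 37.1 CPM. The DMSO and TSA libraries overlapped, and the E6R libraries were below both. No difference passed. The log2 fold change for TSA was 0.11 (95% interval -0.40 to 0.63, edgeR adjusted p = 0.720), and its sign turned to -0.20 when libraries were scaled by total counts alone. For E6R it was -0.36 against DMSO (95% interval -0.87 to 0.15, edgeR adjusted p = 0.429) and -0.48 against TSA (95% interval -0.98 to 0.03, edgeR adjusted p = 0.120).

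The 3 IGF2BP paralogues did not move alike. IGF2BP1 (chr17:48997412-49055650, plus strand) had 604 and 550 UMIs under DMSO, 87 and 94 under TSA, and 2211 and 3914 under E6R. In CPM these were 128 and 105, 6.61 and 8.18, and 140 and 147. The TSA libraries stood well apart, and with TMM scaling the E6R libraries were above both DMSO libraries. Without TMM scaling DMSO and E6R overlapped, at 140.1 CPM in E6R replicate 1 against 143.6 CPM in DMSO replicate 1. Under TSA, IGF2BP1 fell by 3.98 on the log2 scale (SE 0.23, 15.8-fold, edgeR adjusted p = 0.000489), the largest fall of the 7 genes tested, with 75 (0.447%) of all genes tested lower still. The log2 fold change for E6R against DMSO was 0.30 (95% interval -0.16 to 0.76, edgeR adjusted p = 0.472). IGF2BP1 was 19.4-fold higher under E6R than under TSA (log2 4.28, SE 0.23, edgeR adjusted p = 0.000228).

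IGF2BP3 (chr7:23310209-23470467, minus strand), the other paralogue well measured here, had 529 and 452 UMIs under DMSO, 230 and 167 under TSA, and 2891 and 4231 under E6R. The levels were 112 and 86.4 CPM, 17.5 and 14.5 CPM, and 183 and 159 CPM, with no overlap between any 2 treatments. Under TSA, IGF2BP3 fell by 2.63 on the log2 scale (SE 0.23, 6.20-fold, edgeR adjusted p = 0.000727). For E6R against DMSO its log2 fold change was 0.78, the highest of the 7 genes (95% interval 0.29 to 1.27, edgeR adjusted p = 0.205). It did not pass, and passed only when the low-count filter was dropped (log2 0.95, edgeR adjusted p = 0.0135). IGF2BP3 was 10.7-fold higher under E6R than under TSA (log2 3.41, SE 0.23, edgeR adjusted p = 0.000232).

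IGF2BP2 (chr3:185643739-185825056, minus strand), the paralogue that adult tissues keep, was scarce. It had 13 and 10 UMIs under DMSO, 47 and 31 under TSA, and 22 and 32 under E6R, or 2.34 ± 0.601, 3.13 ± 0.616 and 1.30 ± 0.132 CPM (SD, n = 2). DMSO and TSA overlapped, and both E6R libraries were lowest. The log2 fold changes were 0.43 for TSA (edgeR adjusted p = 0.545) and -0.84 for E6R (edgeR adjusted p = 0.424) against DMSO. Between the compounds it was -1.27 for E6R against TSA (SE 0.48, edgeR adjusted p = 0.0700). That value missed the threshold, and passed in 2 of 18 alternatives, with at least 1000 genes per barcode or at most 10% mitochondrial UMIs.

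HMGA2 (chr12:65824131-65966295, plus strand) did not pass the filter. It had 3 and 23 UMIs under DMSO, 5 and 9 under TSA, and 5 and 14 under E6R. DMSO replicate 2 thus held 23 of the 26 DMSO molecules, in 23 different cells, and DMSO replicate 1 lay within the TSA range. Without the filter its log2 fold change for TSA was -2.21 (edgeR adjusted p = 0.0312). A fit without both the filter and DMSO replicate 2 was not run.

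**Figure D2:**
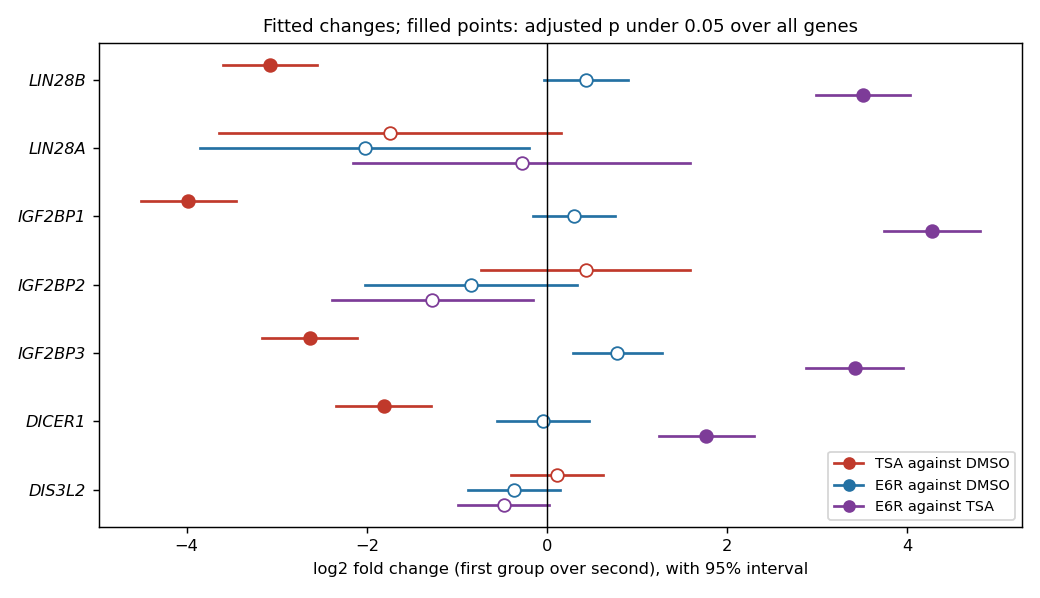
Fitted log2 fold change (horizontal axis, first-named group over second) with its 95% interval for the 7 genes tested, in 3 comparisons; filled points passed an adjusted p of 0.05 over all genes. LIN28B, IGF2BP1, IGF2BP3 and DICER1 are filled on the left for TSA against DMSO and on the right for E6R against TSA, and no point is filled for E6R against DMSO.

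LIN28B, IGF2BP1, IGF2BP3 and DICER1 passed in all 19 alternatives for TSA against DMSO, with adjusted p at most 0.0273 in edgeR or DESeq2, and in all 19 for E6R against TSA, with adjusted p at most 0.0178. With total counts alone the median log2 fold change of all genes under TSA moved from -0.01 to -0.32, and the genes called went from 2720 higher and 2255 lower to 1717 higher and 3361 lower. The log2 values of LIN28B, IGF2BP1, IGF2BP3 and DICER1 lay between -4.30 and -1.68 over those alternatives.

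The share of cells with at least 1 UMI followed the same order for LIN28B. It was 10.6% and 6.39% under DMSO, 2.63% and 1.88% under TSA, and 20.3% and 17.9% under E6R. Depth differed between libraries, so cells with at least 1000 UMIs were also thinned at random to 1000 UMIs each, which kept 1187 to 2789 cells per library. Thinned, LIN28B was found in 5.14% and 4.46%, 0.594% and 0.359%, and 5.96% and 6.69% of cells. The exact (Clopper-Pearson) 95% intervals of the TSA libraries, 0.297% to 1.06% and 0.172% to 0.658%, did not reach those of any other library, which began at 3.52%. The gap between DMSO and E6R narrowed on thinning, and the intervals then overlapped in 3 of the 4 pairs of a DMSO and an E6R library. These intervals cover counting error only.

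Thinned shares of IGF2BP1 were 13.1% and 10.6% under DMSO, 0.810% and 0.717% under TSA, and 12.4% and 13.0% under E6R. For IGF2BP3 they were 10.9% and 7.61%, 1.46% and 1.0%, and 14.7% and 13.4%. DICER1 was found in 15.2% and 22.7%, 4.91% and 4.41%, and 16.4% and 22.2% of thinned cells. For all 3 genes both TSA libraries were below every other library, and only for IGF2BP3 were both E6R libraries above both DMSO libraries. DIS3L2 was found in 4.04% and 4.52%, 4.05% and 3.80%, and 3.37% and 4.49%, with overlap among the treatments. Its unthinned shares, 8.22% and 6.93% under DMSO against 16.3% and 11.9% under TSA, had not overlapped. Of 48 shares, 39 left their own 95% interval on thinning.

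**Figure D3:**
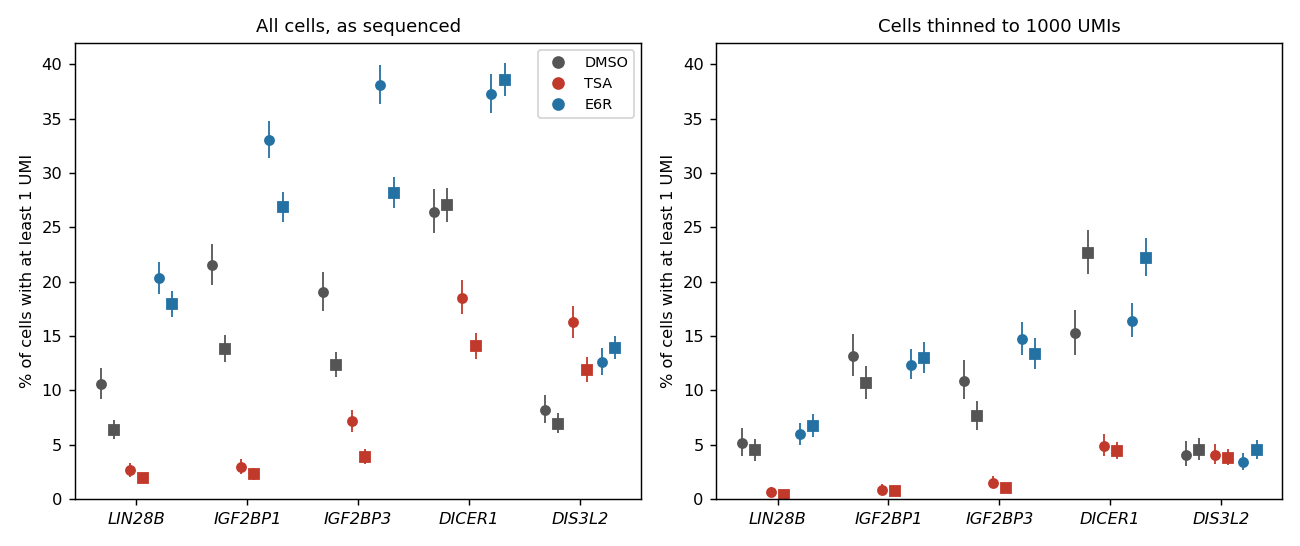
Percent of cells with at least 1 UMI (vertical axis) of 5 genes in each library, for all cells at left and for cells thinned to 1000 UMIs at right; bars are exact 95% intervals, circles replicate 1 and squares replicate 2. TSA libraries are lowest for LIN28B, IGF2BP1, IGF2BP3 and DICER1 in the right panel, and DIS3L2 lies between 3.37% and 4.52% in every library there.

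Most positive cells yielded a single molecule. In thinned DMSO replicate 1, the 65 LIN28B UMIs came from 61 cells, so a smaller number of expressing cells and less RNA per cell cannot be told apart. IGF2BP1 was found in 14.8% of the LIN28B-positive and 13.1% of the LIN28B-negative cells of that library, in 6.67% and 10.8% in DMSO replicate 2, in 13.7% and 12.3% in E6R replicate 1, and in 16.8% and 12.7% in E6R replicate 2. The direction of this difference was not the same in both DMSO libraries. No cell of the thinned TSA libraries carried both, among 11 and 10 LIN28B-positive cells. If the 2 genes were independent, 0.0891 and 0.0717 such cells would be expected there, so the TSA counts cannot show a difference. LIN28A was found in at most 2 thinned cells per library, HMGA2 in at most 12 and IGF2BP2 in at most 8.

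The deposited barcodes with fewer than 200 genes were read as well, with no mitochondrial limit. Whether they held free RNA or poorly captured cells was not tested. At plain CPM (not TMM-scaled), LIN28B there was 43.9 and 45.0 under DMSO, 7.29 and 4.73 under TSA, and 72.0 and 68.2 under E6R. In the cells the same scale gave 61.1 and 49.2, 5.25 and 5.26, and 66.7 and 69.0. The order of the treatments was the same in small barcodes and in cells. By share, 0.490% and 0.743% of the small DMSO barcodes had a LIN28B UMI, at median depths of 100 and 178 UMIs, against 0.113% and 0.0778% of the small TSA barcodes, at medians of 134 and 143 UMIs. The thinned TSA cells, at 1000 UMIs, had 0.594% and 0.359%, at a depth that differs too much for a comparison. How much of the LIN28B signal in cells came from free RNA was not tested, since a culture of 1 cell line offers no cell type that should lack LIN28B.

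Dividing cells were compared with others within each library. Cells thinned to 1000 UMIs were ranked by their UMIs from 51 mitosis genes, and the upper and the lower 1 in 3 cells of each library were summed, giving 395 to 929 cells per class. The class medians were 14 to 16 list UMIs against 3 to 7. The mitosis genes chose the classes and are no result. Of 8354 genes tested with library as a block, 7.31% were called, 4.36% higher and 2.96% lower, and 1 of the 5 member genes tested, DICER1, was among these.

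DICER1 had 72 and 169 UMIs in the mitotic-high cells of the DMSO libraries against 65 and 145 in the mitotic-low cells. Under TSA the counts were 34 and 66 against 31 and 40, and under E6R they were 126 and 234 against 113 and 155. It was higher in the mitotic-high cells of 6 of 6 libraries, by 0.35 on the log2 scale (SE 0.11, edgeR adjusted p = 0.0376). The call was lost in 9 of 13 alternatives, 4 of them leaving out DMSO replicate 2, TSA replicate 2, E6R replicate 1 or E6R replicate 2. LIN28B differed by 0.29 (SE 0.19, edgeR adjusted p = 0.435) and was higher in 3 of 6 libraries. IGF2BP1 differed by 0.30 (SE 0.13, edgeR adjusted p = 0.192) and was higher in 5 of 6. LIN28B and IGF2BP1 each passed in 1 of 13 alternatives, in which counts were not thinned after the classes were set (edgeR adjusted p = 0.00201 and 0.0149). IGF2BP3 and DIS3L2 were near 0, at -0.01 (SE 0.14) and 0.06 (SE 0.20).

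The wider let-7 pathway was read from lists of microRNA processing factors, let-7 host transcripts and let-7 targets. These and the later lists were chosen with earlier results of these data known, so their shares of calls are a description and no test. Of 23 processing genes, 3 rose and 7 fell under TSA, with a median log2 fold change of -0.26 against -0.01 for all genes tested. These were 43.5% of the list, where 29.7% of all genes tested were called, 16.2% higher and 13.5% lower. RAN, the nuclear transport GTPase that works with exportin 5 to carry precursors out of the nucleus, fell from 520 ± 48.4 to 183 ± 36.7 CPM (SD, n = 2, edgeR adjusted p = 0.00334). AGO4, an Argonaute that holds mature microRNAs, fell by 1.87 (SE 0.38, edgeR adjusted p = 0.00993). HNRNPA1, which binds the loop of some precursors, fell by 1.22 (edgeR adjusted p = 0.0210).

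The processing genes that rose under TSA included ILF2, a double-stranded RNA-binding factor, by 1.23 (edgeR adjusted p = 0.00622), and XPO5, exportin 5 itself, by 0.66 (edgeR adjusted p = 0.0381). The XPO5 call was lost when libraries were scaled by total counts alone, where 1 gene of the list rose and 9 fell. The transferases that act with LIN28A did not pass. TUT4 was at -0.11 (edgeR adjusted p = 0.678) and TUT7 at 0.45 (edgeR adjusted p = 0.175). DROSHA, which makes the first cut, was at 0.64 (edgeR adjusted p = 0.0775), and passed with the replicate block (edgeR adjusted p = 0.0422). Under E6R against DMSO 0 of the 23 were called. For E6R against TSA, 7 were higher, RAN among them (log2 2.08, edgeR adjusted p = 0.000750). The 1 that was lower was ILF2 (log2 -0.69, edgeR adjusted p = 0.0369), a call lost with total-count scaling. Together 34.8% of the list was called there, where 38.2% of all genes tested were called.

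Of 8 let-7 host transcripts tested, 3 fell under TSA and none rose, where 13.5% of all genes tested were called lower, with a median of -1.40. With total-count scaling 5 were lower, with a median of -1.72, and with the replicate block 4 were lower. SPACA6, the host locus of let-7e, fell by 2.44 (SE 0.47, edgeR adjusted p = 0.00782), from 5.76 ± 0.570 to 1.05 ± 0.128 CPM (SD, n = 2). MIR99AHG, which hosts let-7c, fell by 1.26 (SE 0.37, edgeR adjusted p = 0.0355). WDR82, which hosts let-7g, was the third, at -0.83 (edgeR adjusted p = 0.0397). No host transcript was called for E6R against DMSO, where the median was -0.46. SPACA6 alone was higher under E6R than under TSA (log2 1.37, edgeR adjusted p = 0.0434), where total-count scaling gave 2. Of all genes tested, 18.7% were called higher there. A host transcript is not the mature microRNA, whose level is set after processing.

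Of 22 let-7 target genes tested, 2 rose and 7 fell under TSA, with a median of -0.33. These were 40.9% of the targets, where 29.7% of all genes tested were called, 16.2% higher and 13.5% lower. TRIM71, an embryonic ubiquitin ligase, fell by 3.41 (SE 0.92, edgeR adjusted p = 0.0276) from a low 3.62 ± 2.69 CPM (SD, n = 2). CCND1, cyclin D1, fell by 2.93 (SE 0.21, edgeR adjusted p = 0.000489), from 1004 ± 111 to 131 ± 8.57 CPM (SD, n = 2). The 2 targets that rose were NR6A1, an embryonic nuclear receptor, by 2.46 (SE 0.69, edgeR adjusted p = 0.0317), and ARID3B, a DNA-binding protein, by 1.07 (SE 0.24, edgeR adjusted p = 0.0148); the ARID3B call was lost with total-count scaling.

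MYCN, the oncogene of this line, did not pass under TSA (log2 -0.48, edgeR adjusted p = 0.148) nor under E6R against DMSO (log2 0.98, edgeR adjusted p = 0.205), and was higher under E6R than under TSA (log2 1.46, SE 0.23, edgeR adjusted p = 0.00273). HMGA1, the relative of HMGA2, did not pass in any comparison, with -0.46 under TSA (edgeR adjusted p = 0.188). With the replicate block HMGA1 passed for E6R against TSA (log2 0.65, edgeR adjusted p = 0.0444). For E6R against DMSO no target was called. For E6R against TSA, 8 targets were higher and 3 lower, 50% of those tested, where 38.2% of all genes tested were called. With the replicate block 11 were higher and 4 lower. The higher ones were led by TRIM71 (log2 3.94, edgeR adjusted p = 0.0109) and CCND1 (log2 3.43, edgeR adjusted p = 0.000228). The lower ones were led by CCND2 (log2 -4.47, edgeR adjusted p = 0.0129) and NR6A1 (log2 -3.58, edgeR adjusted p = 0.00517). CCND2 was at 0.0752 ± 0.106 CPM (SD, n = 2) under E6R, so the size of its change is uncertain.

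**Figure D4:**
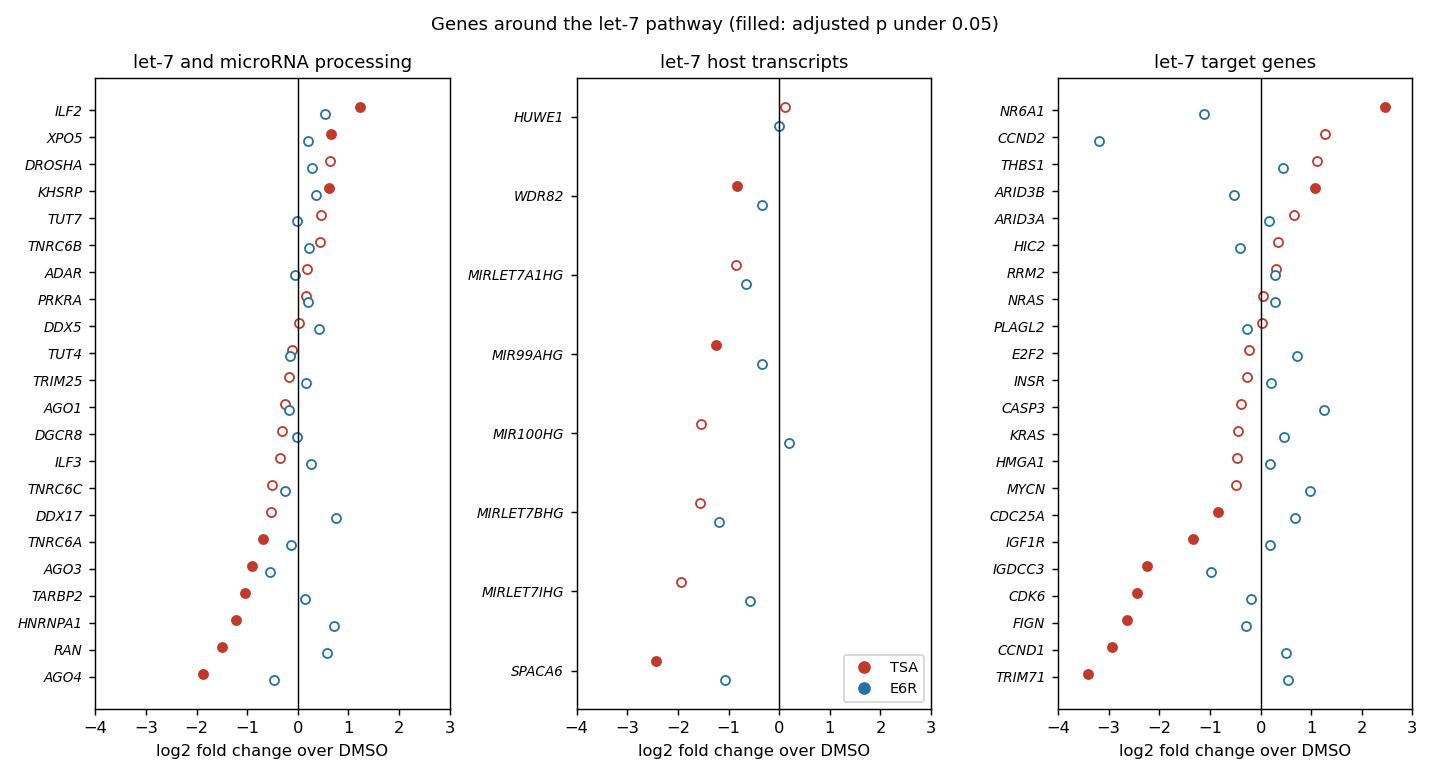
Fitted log2 fold change over DMSO (horizontal axis) for genes of 3 lists around let-7, under TSA in red and E6R in blue; filled points passed an adjusted p of 0.05 over all genes. Filled points occur for TSA in both directions and for E6R in none, and 1 of the 23 processing genes is not drawn.

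Across the transcriptome, 1360 tested genes held at least 1 CTACCTC in the 3′ UTR searched, and 17.6% of these were called lower under TSA, against 14.3% of the 12353 genes without one. Their median 3′ UTR lengths were 2907 and 1004 bases, so the groups differ in more than the match. The 28 genes with 3 or more matches included 9 called lower (32.1%) and 2 called higher (7.14%). Of all 13713 tested genes with a 3′ UTR, 14.6% were called lower and 18.3% higher. LIN28B and IGF2BP1, whose falls are given above, are among the 9. The median 3′ UTR of the 28 was 5984.5 bases, against 1124 for all, so this set too differs in more than the matches.

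Of 9 tested mRNAs that IGF2BP proteins are known to bind, 2 rose under TSA and none fell: ACTB, beta-actin, by 1.41 (SE 0.24, edgeR adjusted p = 0.00494), and ABCB1, a drug efflux pump, by 1.08 (SE 0.28, edgeR adjusted p = 0.0243). The 2 calls were 22.2% of the list, where 29.7% of all genes tested were called. The ABCB1 call was lost with total-count scaling, where 1 gene of the list rose and 2 fell. With the replicate block 3 were higher and 2 lower under TSA, and 2 were higher and 2 lower for E6R against TSA. None was called for E6R against DMSO. CD44, an adhesion receptor, was higher under E6R than under TSA (log2 2.68, SE 0.59, edgeR adjusted p = 0.00965). IGF2, the fetal growth factor, was lower (log2 -1.40, SE 0.44, edgeR adjusted p = 0.0380), a call lost with total-count scaling. These were 22.2% of the list, where 38.2% of all genes tested were called.

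Other oncofetal genes went both ways under TSA. Of 7 tested, GPC3, glypican 3, rose by 2.03 (SE 0.40, edgeR adjusted p = 0.00854), and PEG10, an imprinted retrotransposon-derived gene, rose by 1.98 (SE 0.26, edgeR adjusted p = 0.00235), from 132 ± 20.8 to 519 ± 140 CPM (SD, n = 2). TRIM71 was the 1 that fell. Of those tested 42.9% were called, where 29.7% of all genes tested were called. With the replicate block 3 were higher and 1 lower. For E6R against TSA, 1 was higher, TRIM71, and 3 were lower, 57.1% of those tested, where 38.2% of all genes tested were called. Both GPC3 and PEG10 were lower under E6R than under TSA, with log2 values of -1.87 and -1.88 (edgeR adjusted p = 0.00644 and 0.00161), the opposite side from LIN28B, IGF2BP1 and IGF2BP3. None was called for E6R against DMSO. Of the 51 mitosis genes used for the classes, 14 rose and 7 fell under TSA, with a median log2 fold change of 0.18. These were 41.2% of the list, where 29.7% of all genes tested were called. With the replicate block 16 were higher and 7 lower. With total-count scaling 9 were higher and 11 lower, and the median turned to -0.14.

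The genes most like LIN28B in pattern were sought among 1013 tested genes of at least 20 CPM and similar spread, by Pearson's r of log2 CPM over the 6 libraries. UBTF, a factor of ribosomal RNA transcription, had r = 0.9994, SMAD9, a BMP signal transducer, r = 0.9991, and TCF4, a basic helix-loop-helix factor, r = 0.9991. For IGF2BP1, among 551 genes, these were ZMYND11 (r = 0.9989), UBTF (r = 0.9988), TLK1 (r = 0.9984) and LIN28B itself (r = 0.9983). The 2 TSA libraries stand apart from the other 4 in each of these genes, so r mainly describes that gap; it is given as a description with no p.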

How the data were processed

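Single-cell RNA-seq libraries made with Seq-Well S3 were analysed as deposited: whole-number UMI counts per gene and barcode, not normalized by the authors. Per the submitters' processing notes, reads were processed with STARsolo 2.7.9a on GRCh38; the annotation and strand rule are not given in the sources used here. Of the 36601 gene identifiers, 34616 (94.6%) were in GENCODE 29, which gave positions. The 8 members and the lists were chosen with earlier results of these data known.

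Barcodes with at least 500 genes and at most 20% UMIs from 13 mitochondrial genes were kept, and no doublet caller was run. Counts were summed per library and fitted with edgeR 4.0.16 in R 4.3.3 (TMM, filterByExpr, quasi-likelihood test, treatment as the only term, all 6 libraries in one fit, Benjamini-Hochberg at 0.05). The common biological coefficient of variation was 0.288. No pair of replicates agreed within counting noise (chi-square per degree of freedom 17.2 for DMSO, 39.3 for TSA and 76.3 for E6R). Library sums were 4206366 to 26180262 UMIs, but counting error follows the UMIs of each gene. It is smaller for LIN28B, IGF2BP1, IGF2BP3, DICER1 and DIS3L2 than for the genes with few UMIs, where it is large. Under TSA, LIN28B had only 75 and 70 UMIs and IGF2BP1 87 and 94, so counting error is not negligible there. Fitting was tested on simulated data. Replicate numbers come from the sample titles, which do not say what a number marks. Libraries of the same number deviated from their treatment means together (r = 0.242 for DMSO with TSA, 0.564 for DMSO with E6R and 0.166 for TSA with E6R, over 7515 genes), so values with the number as a block are given where they change a call. The alternatives were other scalings and filters, DESeq2 1.42.0, a replicate block, thinned sums or cells, and leaving out each library.

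All 8 members were named, with fixed further genes (MYCN, RAN, TUT4, TUT7, DROSHA, HMGA1) and, of each list, the 2 largest rises and falls that passed in a comparison, and the 4 genes of most like pattern; others named are examples. A microRNA processing factor and a gene of like pattern to LIN28B, both picked by the rule, were left unnamed in the text; the list counts include the former. Genes of the mitosis list were not named because they define the classes.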

Additional observations from a re-analysis of the deposited data

Results flagged for a closer look

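The deposited barcodes with fewer than 200 genes are not among the cells of the report, and enter a test only in the alternative with all deposited barcodes. In them LIN28B, IGF2BP1 and IGF2BP3 were present under E6R above the level of the DMSO control. As the mean of 2 libraries in plain CPM without TMM scaling, LIN28B under E6R was at 70.1 in these small barcodes against 44.4 under DMSO, IGF2BP1 was at 149.7 against 131, and IGF2BP3 was at 141.9 against 89.0. For IGF2BP3 the libraries came close, with 111.8 in E6R replicate 2 (41 UMIs) against 110.1 in DMSO replicate 1. They also came close for IGF2BP1, with 143.9 in E6R replicate 1 (174 UMIs) against 135.8 in DMSO replicate 1 (158 UMIs). In E6R replicate 2, LIN28B rested on 25 UMIs and IGF2BP1 on 57. These are values with no test, and the direction of the means is that of the cells. In the cells on the same plain scale IGF2BP1 overlapped, at 140.1 in E6R replicate 1 against 143.6 in DMSO replicate 1. No group had enough libraries for a check of single outlying libraries.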

How the results depend on the processing

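The 4 calls among the members for TSA against DMSO, and the 4 for E6R against TSA, held under every alternative run. HMGA2 made a further call for TSA against DMSO, 5 in all, without a low-count filter and with all deposited barcodes. For E6R against DMSO, no member was called except without a low-count filter, where 1 was (IGF2BP3). All genes called for E6R against DMSO went from 0 (2913 at an unadjusted p under 0.05) to 1095 without a filter, 361 with DESeq2, 19 with the replicate block, 1 with all deposited barcodes, and 0 to 3 when 1 library was left out, with 3 without E6R replicate 1 or 2. For TSA against DMSO, 4975 genes became 1416 to 6028 when 1 library was left out, with 2508 and 2696 without DMSO replicates 1 and 2, and 1769 and 1416 without TSA replicates 1 and 2. For E6R against TSA, 6408 became 4151 with thinned cells and 2628 to 6385 when 1 library was left out, with 3175 and 2628 without TSA replicates 1 and 2. Leaving out 1 library leaves a treatment with a lone sample, assumed to vary like the others. In the mitotic comparison, the 1 member called became 0 with total counts, without a filter, with classes of 1 in 4 cells, without the library block and with DESeq2, 3 without thinning, and 0 to 1 when 1 library was left out. Its 611 genes became 2011 without thinning, 46 without the block, 259 with DESeq2 and 384 to 648 when 1 library was left out, the lowest being 384, with E6R replicate 1 dropped, and 406, with DMSO replicate 1 dropped. The cause of these shifts was not tested. With the replicate number as a block, 6047 genes were called for TSA against DMSO and 7567 for E6R against TSA, no member call changed, and no call of a listed gene was lost. For LIN28A, IGF2BP2 and HMGA2, depth limits what could be detected.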
